A study of Homo sapiens with 12 samples.

Results

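The genes described here are 44 genes of homologous recombination, the Fanconi anaemia pathway and the DNA damage checkpoint, chosen by name and looked up by Ensembl identifier in a table of raw RNA-seq counts. All 44 were found among the 63677 genes of the table, and all 44 passed the filter on low counts that left 18674 genes to test. The libraries came from 3 lines of mantle cell lymphoma (MCL), namely JEKO1, JVM2 and MAVER1. Each was left as control or treated for 48 h with ironomycin, ibrutinib or their combination. Ironomycin, an iron-sequestering derivative of salinomycin, was given at 50 nM to JEKO1 and at 250 nM to JVM2 and MAVER1. Ibrutinib, which inhibits the B-cell receptor kinase BTK, was given at 0.5 μM to JEKO1, 1.5 μM to JVM2 and 6.25 μM to MAVER1, so the effects of dose and line cannot be told apart. Each line gave 1 library per treatment, so a treatment has 3 libraries and the lines serve as its replicates. The fit has a term for line, so the p-values of the treatment comparisons do not count differences in level between lines as spread. They measure how unevenly the lines responded, mixed with variation between cultures and libraries. With 1 library per line and treatment these cannot be separated. Tests of a difference between lines rest on libraries of a line that differ in treatment, not on repeated cultures. Established lines stand here for MCL cells without a tumour environment, and the study describes ATM as inactivated in MAVER1.

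Homologous recombination repairs a broken chromosome by copying the sister chromatid, and it works mainly in cells that have replicated their DNA. The ends are sensed by the MRE11-RAD50-NBN complex, resected, and prepared by the BRCA proteins to pair with the sister, while the Fanconi proteins unhook crosslinks between strands at stalled forks. The kinases ATM and ATR signal the damage to CHEK2 and CHEK1, which stop the cell cycle, and many genes of these pathways are transcribed most in dividing cells. MCL is a B-cell lymphoma in which ATM is often mutated or deleted. RNA levels say nothing of the phosphorylated forms of these proteins, such as γH2AX.

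The libraries held 35448523 to 38630809 counted reads, and the member with the fewest reads in any library, RAD54B, still had 47. Levels are TMM CPM, the counts scaled to library size with edgeR's TMM factors, which are not per length and were compared only within a gene. The B cell markers MS4A1, CD79A, CD79B and PAX5 summed to 1082 to 1955 TMM CPM in all 12 libraries, against at most 3.20 for 3 T cell markers and 5.07 for 3 monocyte markers. The epithelial markers summed to at most 24.0 and the fibroblast markers to at most 32.9 TMM CPM. Of the MCL markers, CCND1 was at a median of 2756 TMM CPM in JEKO1, 261 in JVM2 and 4591 in MAVER1, while SOX11 was at 0 in JVM2 and CD5 at a median of 0.0412 there. JVM2 thus lacked SOX11 and nearly lacked CD5.

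With both drugs, the histone H2AX, the kinases CHEK2 and CHEK1, the ubiquitin ligase RNF8 and 4 further members were lower than in control, and ATM was higher. The changes were modest, from 1.21-fold to 1.57-fold. A gene was called when its adjusted p (Benjamini-Hochberg, over all genes tested) was under 0.05 in edgeR's quasi-likelihood test, fitted to the 12 libraries with terms for treatment and line. By this rule 8 of the 44 members (18.2%) were lower, against 14% of all genes tested, and 1 member (2.27%) was higher, against 14.2% of all genes. The share called lower was thus close to that of the whole table, and the share called higher was below it. The median log2 fold change of the 44 members was -0.12, against 0.05 over all genes tested. In single lines, 17 members (38.6%) were below their own control in all 3 lines, against 23.7% of all genes, and 7 (15.9%) were above it, against 25.4%.

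**Figure D1:**
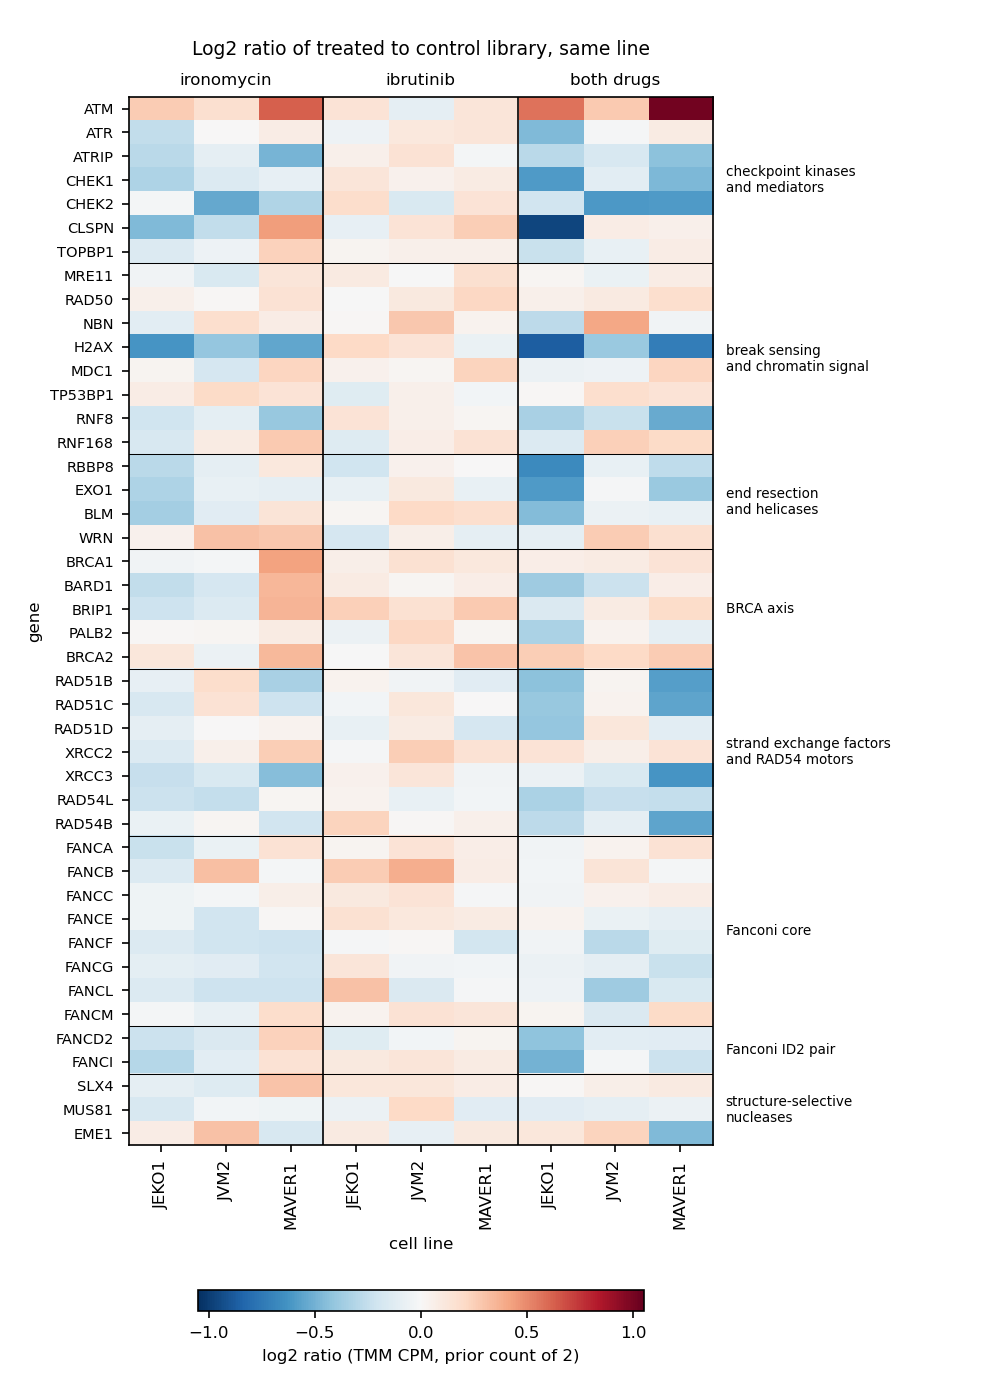
Log2 ratio of each treated library to the control library of the same line (colour, TMM CPM with a prior count of 2) for the 44 genes in rows, grouped by role, and the 9 treated libraries in columns. H2AX is blue in all 3 lines with ironomycin and with both drugs, ATM is red there, and the ibrutinib columns are pale.

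DESeq2 called 11 members lower, against 18.5% of all genes, and 2 higher, against 15.9%. All calls by edgeR were lost without JEKO1 and without MAVER1, when the whole table had 37 and 22 called genes instead of 5268. The fitted values kept their direction. H2AX, at -0.65 in all lines, was at -0.55 without JEKO1 and -0.62 without MAVER1, ATM, at 0.62, was at 0.64 and 0.42, and RBBP8, at -0.34, was at -0.17 and -0.37. Without JVM2, 11 members were lower and 1 higher. The 9 called members had the same sign in all 3 lines, and the log2 ratio was smallest in JVM2 for 8 of the 9. They were called from these same libraries, which favours agreement in sign. Neither count was made over all called genes, so they are not shown to be particular to the members. The proliferation genes described below also had their median of smallest size in JVM2. The split also depended on the scaling, since with library totals in place of TMM the median over all genes moved from 0.05 to 0.18. With library totals, 1 member was lower (H2AX) and 4 were higher (ATM, BRCA2, TP53BP1 and RAD50).

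Among the 7 checkpoint kinases and mediators, 3 fell (42.9%, against 14% of all genes) and 1 rose (14.3%, against 14.2%) with both drugs. ATM, the kinase that responds to double-strand breaks, was the 1 member that rose. Its level in control, ironomycin, ibrutinib and the combination was 126, 151, 139 and 187 TMM CPM in JEKO1. JVM2 had 68.6, 77.2, 64.2 and 83.2 in that order, and MAVER1 had 33.4, 51.7, 36.4 and 67.5. In each line the library with both drugs was the highest of the 4 and that with ironomycin alone came next. The fitted log2 fold change of both drugs against control was 0.62 ± 0.12 (SE, n = 3 lines per treatment, adjusted p = 0.00655), a 1.54-fold rise. The single-line log2 ratio was 0.57 for JEKO1, 0.28 for JVM2 and 1.02 for MAVER1.

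CHEK2, the kinase that ATM activates, went the other way. Its level in control, ironomycin, ibrutinib and both drugs was 19.9, 19.6, 22.5 and 17.2 TMM CPM in JEKO1. The same 4 values were 25.4, 17.4, 22.7 and 16.7 in JVM2, and 58.1, 46.7, 64.1 and 38.4 in MAVER1. The library with both drugs was the lowest of its line each time, by the least in JVM2, where ironomycin alone was nearly as low. The log2 fold change was -0.47 ± 0.11 (SE, adjusted p = 0.0116), or 1.39-fold lower.

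CHEK1, the kinase below ATR, fell with both drugs by 0.39 on the log2 scale (SE 0.11, adjusted p = 0.0260). JEKO1 went from 68.3 to 45.1 TMM CPM, JVM2 from 68.7 to 63.8 and MAVER1 from 51.7 to 37.2, so the JVM2 value moved least. ATRIP, which brings ATR to single-stranded DNA, fell by 0.30 (SE 0.09, adjusted p = 0.0346), with log2 ratios of -0.28, -0.17 and -0.43 in JEKO1, JVM2 and MAVER1. The other 3 were not called. ATR itself had a log2 fold change of -0.13 and its activator TOPBP1 of -0.08. CLSPN (claspin), the adaptor through which ATR reaches CHEK1, had -0.27 with the widest error of the group (SE 0.20). It was 58.4 TMM CPM in the JEKO1 control and 29.9 with both drugs, but 51.1 and 54.0 in JVM2 and 47.6 and 49.4 in MAVER1.

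Of the 8 genes of break sensing and the chromatin signal, 2 fell with both drugs (25%, against 14% of all genes) and 0 rose. H2AX, the histone variant that ATM phosphorylates around a break, had the lowest p of the 44. Its level in control, ironomycin, ibrutinib and both drugs was 151, 98.4, 175 and 82.6 TMM CPM in JEKO1. In JVM2 the 4 values were 316, 238, 350 and 242, and in MAVER1 they were 136, 93.1, 130 and 82.3. Both libraries with ironomycin were below both libraries without it in all 3 lines. The log2 fold change of both drugs was -0.65 ± 0.11 (SE, adjusted p = 0.00379), a 1.57-fold fall, with ratios of -0.87, -0.39 and -0.72 in JEKO1, JVM2 and MAVER1.

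RNF8, the ligase that reads phosphorylated MDC1 and starts ubiquitin marking at the break, was the other of the 2. Against control, the combination took JEKO1 from 69.0 to 54.5 TMM CPM, JVM2 from 28.7 to 24.4 and MAVER1 from 32.2 to 22.3. The log2 fold change was -0.37 ± 0.09 (SE, adjusted p = 0.0117). The other 6 were not called. They include the 3 subunits of the sensor complex, MRE11, RAD50 and NBN, at 0.01, 0.11 and 0.04 on the log2 scale. The adaptor MDC1 was at 0.04, the ligase RNF168, which acts after RNF8, at 0.10 and TP53BP1, which holds resection back, at 0.11.

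**Figure D2:**
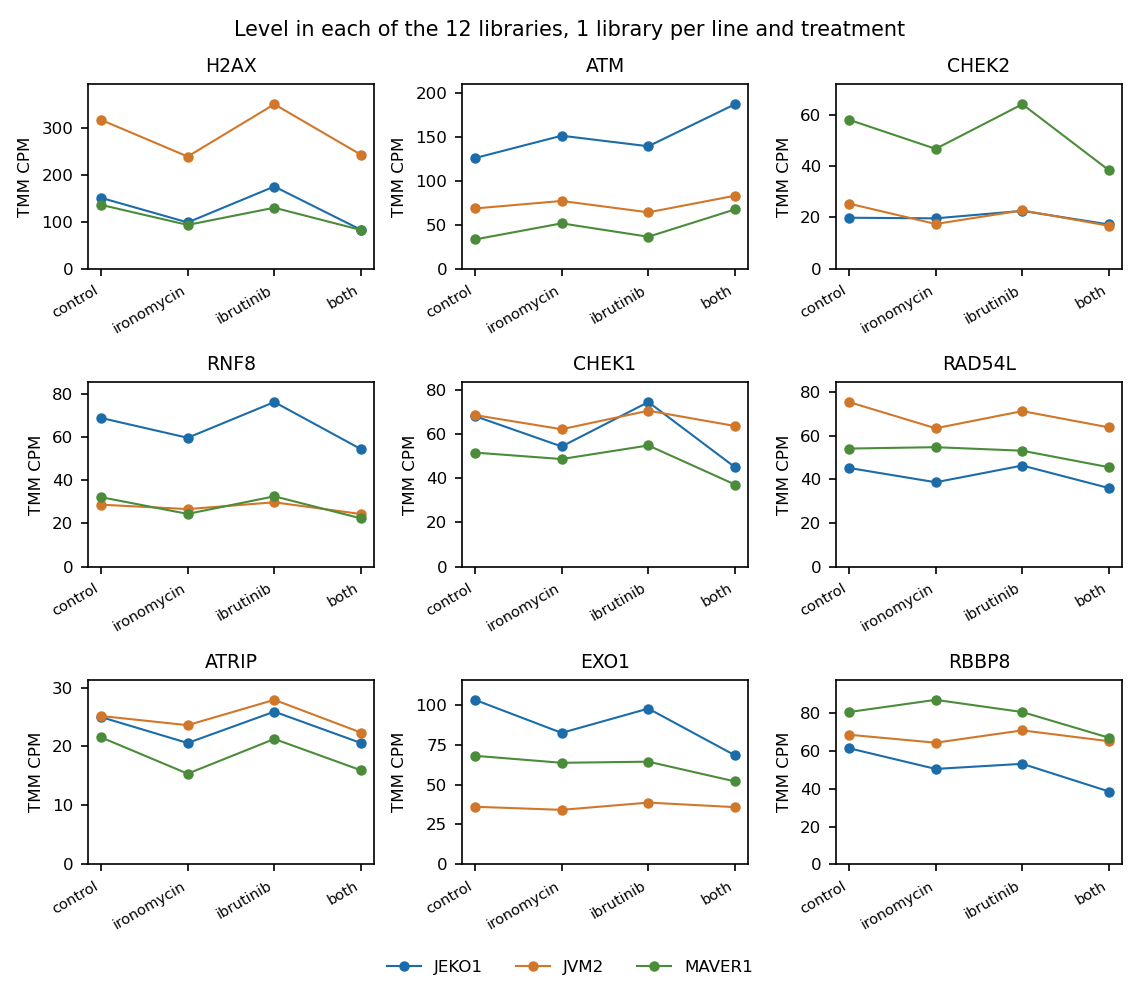
TMM CPM (vertical axis, from 0) of the 9 genes called between both drugs and control, in control, ironomycin, ibrutinib and both drugs, 1 point per library and 1 line per cell line. ATM is highest with both drugs in every line, H2AX is lower in both libraries with ironomycin, and the order of the lines differs between genes.

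Of the 4 genes of end resection and unwinding, 2 fell with both drugs (50%, against 14% of all genes) and 0 rose. EXO1, the exonuclease of long-range resection, was 103 TMM CPM in the JEKO1 control and 68.4 with both drugs, 36.1 and 35.9 in JVM2, and 68.1 and 52.0 in MAVER1 (log2 fold change -0.33 ± 0.11 SE, adjusted p = 0.0384). RBBP8 (CtIP), which starts resection together with MRE11, was 61.5 and 38.6 TMM CPM in JEKO1, 68.7 and 65.2 in JVM2, and 80.7 and 67.1 in MAVER1 (log2 fold change -0.34 ± 0.11 SE, adjusted p = 0.0441). In JVM2 the log2 ratio of EXO1 was -0.01 and that of RBBP8 -0.07, so the difference lay in the other lines. The helicases BLM and WRN, both mutated in inherited cancer-prone syndromes, were at -0.20 and 0.11 and were not called.

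Of the 7 strand exchange factors and RAD54 motors, which act as the broken end pairs with its sister, 1 fell (14.3%, against 14% of all genes). RAD54L was at 45.2 TMM CPM in the JEKO1 control and 36.0 with both drugs, 75.4 and 63.8 in JVM2, and 54.1 and 45.5 in MAVER1 (log2 fold change -0.27 ± 0.08 SE, adjusted p = 0.0342). Its 3 log2 ratios, -0.33, -0.24 and -0.25, were the most even of the called members. RAD51C, XRCC3 and RAD51B, at -0.30, -0.28 and -0.32, had adjusted p-values of 0.0612, 0.0689 and 0.111 by edgeR and were not called, whereas DESeq2 called RAD51C (adjusted p = 0.0160) and XRCC3 (adjusted p = 0.0214) as lower. Their log2 ratios were largest in size in MAVER1, at -0.55, -0.62 and -0.58.

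In 4 role groups edgeR called 0 members. For the BRCA axis (BRCA1, BARD1, BRIP1, PALB2 and BRCA2), which acts on resected ends, 1 of 5 was higher at an unadjusted p under 0.05 (against 21.7% of all genes) and was called by DESeq2. That gene was BRCA2 with log2 ratios of 0.26, 0.21 and 0.27 in the 3 lines and an adjusted p of 0.0757 by edgeR. For the 8 Fanconi core genes, whose products form the ligase at a crosslink, the fitted values ran from -0.20 for FANCL, its catalytic subunit, to 0.05 for FANCA. At an unadjusted p under 0.05 the core had 0 in either direction, against 19.4% of all genes lower, and DESeq2 called 1, FANCG, as lower. The ligase's targets FANCD2 and FANCI were at -0.22 and -0.25, and the nuclease scaffold SLX4 and the nuclease pair MUS81 and EME1 ran from -0.09 to 0.05. Neither of these 2 groups had a member at an unadjusted p under 0.05 or a call by DESeq2.

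**Figure D3:**
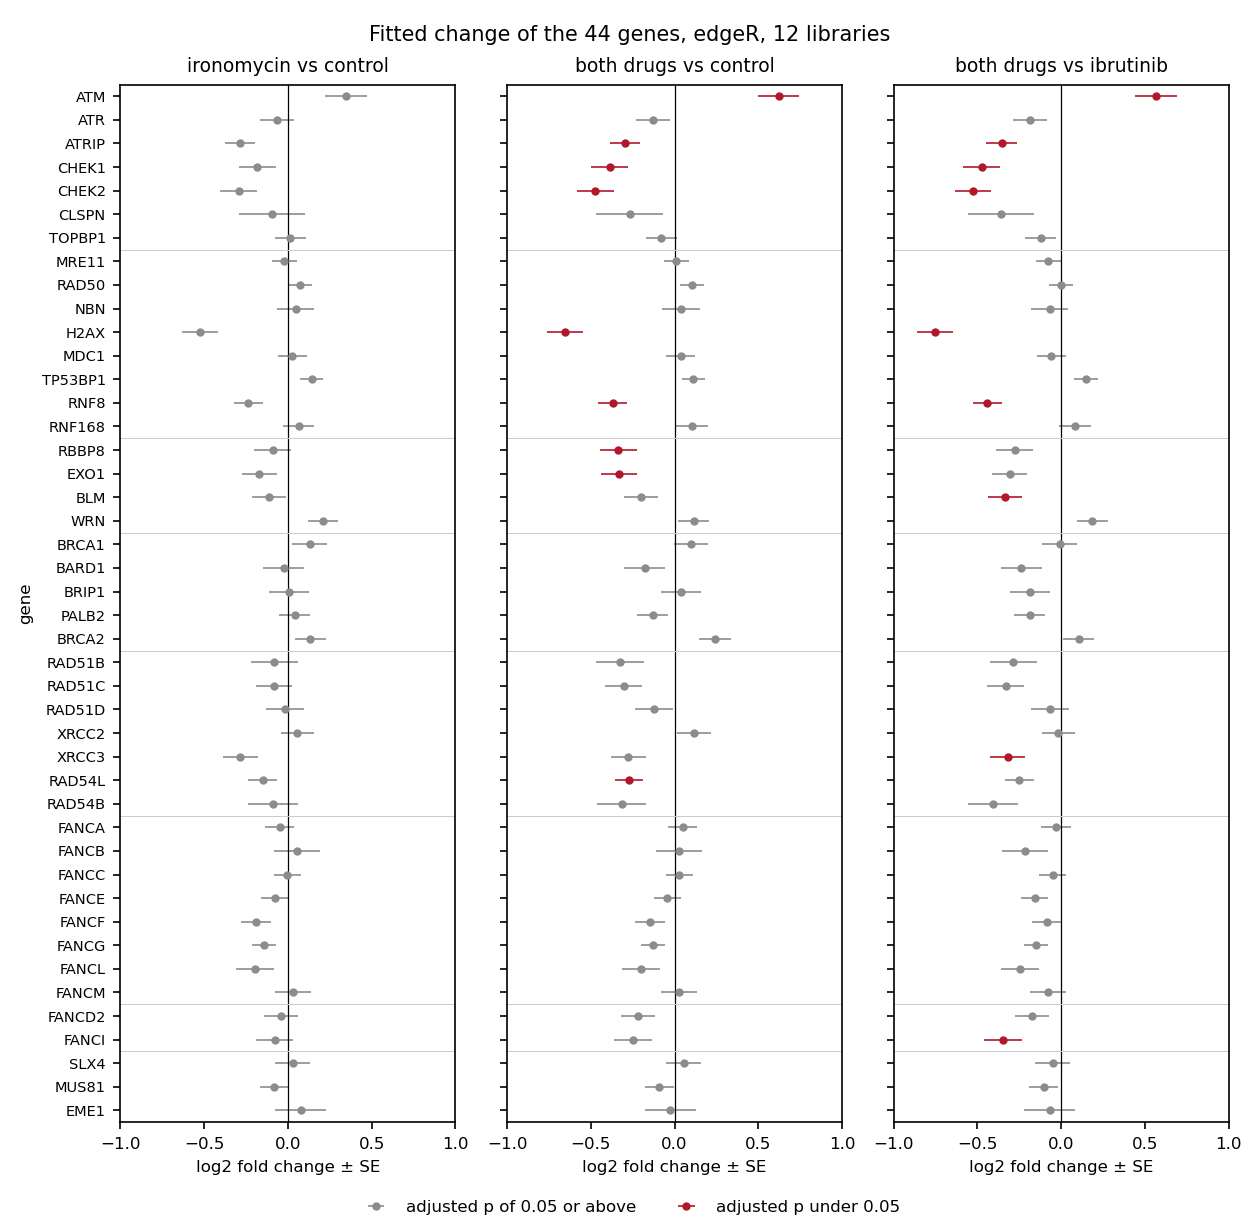
Fitted log2 fold change (horizontal axis, bars are ± 1 SE) of the 44 genes in 3 comparisons, with red for an adjusted p under 0.05 and grey otherwise. With both drugs the 8 Fanconi core genes lie between -0.20 and 0.05 and are grey, and the 9 genes called with both drugs lie on the same side of 0 with ironomycin alone.

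The 5 sequences printed next are the 200 bases before the start site of the 4 genes called lower with the lowest p and, for contrast, of MRE11, the member with the highest p. They show where the promoter motifs searched for here were matched. Only 1 motif was matched in more than 1 of these genes, and MRE11 had it too. The sequences come from RefSeq on GRCh38.p14, 5′ to 3′ on the gene's strand, with capitals for a match. H2AX is chr11:119095466-119095665 (minus strand), CHEK2 chr22:28741821-28742020 (minus), RNF8 chr6:37353783-37353982 (plus), CHEK1 chr11:125626029-125626228 (plus, 1 of 3 listed starts) and MRE11 chr11:94493845-94494044 (minus).
H2AX: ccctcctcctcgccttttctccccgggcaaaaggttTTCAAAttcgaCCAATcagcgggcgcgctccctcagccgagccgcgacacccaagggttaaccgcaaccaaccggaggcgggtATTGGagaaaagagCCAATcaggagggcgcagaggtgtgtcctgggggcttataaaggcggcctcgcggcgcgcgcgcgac
CHEK2: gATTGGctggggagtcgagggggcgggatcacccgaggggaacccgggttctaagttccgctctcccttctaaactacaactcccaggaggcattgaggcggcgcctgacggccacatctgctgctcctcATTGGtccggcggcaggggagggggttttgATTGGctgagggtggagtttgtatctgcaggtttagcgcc
RNF8: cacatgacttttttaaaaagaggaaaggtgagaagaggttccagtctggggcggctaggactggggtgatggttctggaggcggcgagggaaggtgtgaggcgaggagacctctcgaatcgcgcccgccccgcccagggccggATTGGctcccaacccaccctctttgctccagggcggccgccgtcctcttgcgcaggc
CHEK1: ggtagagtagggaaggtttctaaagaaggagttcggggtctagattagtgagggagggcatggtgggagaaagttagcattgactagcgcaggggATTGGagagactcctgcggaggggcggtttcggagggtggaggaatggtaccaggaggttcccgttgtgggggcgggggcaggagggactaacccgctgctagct
MRE11: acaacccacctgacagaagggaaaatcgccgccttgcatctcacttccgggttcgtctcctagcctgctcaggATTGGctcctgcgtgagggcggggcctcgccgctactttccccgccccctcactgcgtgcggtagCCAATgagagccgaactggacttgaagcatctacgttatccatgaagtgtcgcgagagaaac
The capitals are CCAAT, the box bound by NF-Y, with 3 matches in H2AX, 3 in CHEK2, 1 in RNF8, 1 in CHEK1 and 2 in MRE11, and in H2AX also 1 TTTGAA. All were read on both strands. MRE11, whose level did not pass the test in any of the 6 treatment comparisons, thus had more boxes than RNF8, which fell. It also had more than CHEK1, which fell too, but only at the CHEK1 start printed. Another listed start of CHEK1 had boxes 12, 26 and 232 bases before it. Over windows of 300 bases (250 before to 50 after a start), 52 windows for 40 of the 44 members were in the table. CCAAT was in 25 of the 52 (48.1%), against 34.6% of all 35116 windows. An E2F site, searched as TTTCGCGC, TTTGGCGC or TTTCCCGC, was in 6 (11.5%) against 2.74%, namely in CLSPN, EXO1, FANCC, FANCD2, TOPBP1 and XRCC2. The cell cycle gene homology region, searched as TTTGAA or TTCGAA, was in 5 (9.62%) against 16.4%. By gene, where a match in any window is enough, CCAAT was in 20 of the 40 members. An E2F site was in 6 and the homology region in 5. No such count by gene was made over all genes. Of the 8 genes that fell, 6 had a CCAAT box, 1 an E2F site (EXO1) and 1 the homology region (H2AX). These are matches of letters, and binding was not measured.

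With ironomycin alone, edgeR called 0 of the 44 members, against 0.171% of all genes lower and 0.412% higher. At an unadjusted p under 0.05 there were 5 lower and 2 higher, against 11.2% of all genes in each direction. DESeq2 called 5 lower, against 9.32% of the 14691 genes it kept, and 1 higher, against 6.39%. The shares of members lower were thus close to the shares given beside them. The 3 with the lowest p were H2AX (log2 fold change -0.52 ± 0.11 SE, adjusted p = 0.0580), ATRIP (-0.29 ± 0.09, adjusted p = 0.113) and ATM (0.35 ± 0.12, adjusted p = 0.139). The H2AX ratio was -0.62 for JEKO1, -0.41 for JVM2 and -0.54 for MAVER1, and all 3 lines were below their control. Of all members, 11 were lower in all 3 lines (25%, against 21.1% of all genes) and 5 higher (11.4%, against 21.2%). The median over the 44 was -0.14 for JEKO1, -0.08 for JVM2 and 0.08 for MAVER1, where 16 members were below control. The medians of the 8 role groups in MAVER1 ran from -0.20 for the strand exchange factors and RAD54 motors to 0.35 for the BRCA axis, where PALB2 was at 0.09. BRCA1, the ligase and scaffold of the axis, was 75.1 TMM CPM in the MAVER1 control and 101 with ironomycin, 67.1 and 65.3 in JEKO1, and 87.3 and 86.2 in JVM2.

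With ibrutinib alone, edgeR called 0 members, against 0% of all genes lower and 0% higher. No member was at an unadjusted p under 0.05 (0 lower, against 2.24% of all genes, and 0 higher, against 1.4%). DESeq2 called 0, against 0.129% lower and 0.0545% higher of the 14691 genes it kept. The values ran from -0.07 to 0.24, with a median of 0.06 against -0.0007 over all genes. BRIP1 (0.23 ± 0.12 SE), a helicase that works with BRCA1, FANCB (0.24 ± 0.14), of the Fanconi core, and BRCA2 (0.14 ± 0.09) had the lowest p, all with an adjusted p of 0.99997. Higher values in all 3 lines were found for 16 members (36.4%, against 14.4% of all genes) and lower values in all 3 for 0 (against 15.2%).

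Ironomycin added to ibrutinib, that is both drugs against ibrutinib, gave 8 members lower (18.2%, against 11.5% of all genes) and 1 higher (2.27%, against 11.8%). This comparison shares the libraries with both drugs with the comparison against control. H2AX was at -0.75 ± 0.11 (SE, adjusted p = 0.00441), RNF8 at -0.44 ± 0.09 (adjusted p = 0.00818), CHEK2 at -0.53 ± 0.11 (adjusted p = 0.0100), CHEK1 at -0.47 ± 0.11 (adjusted p = 0.0144) and ATRIP at -0.36 ± 0.09 (adjusted p = 0.0204). ATM was the gene that rose (0.57 ± 0.12 SE, adjusted p = 0.0113).

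The remaining 3 were BLM, FANCI and XRCC3, which had not passed edgeR's test against control (XRCC3 had passed that of DESeq2). BLM was at -0.33 ± 0.10 (SE, adjusted p = 0.0370), FANCI at -0.35 ± 0.11 (adjusted p = 0.0474) and the strand exchange factor XRCC3 at -0.32 ± 0.10 (adjusted p = 0.0480). BLM was 71.1 TMM CPM in the JEKO1 library with ibrutinib and 51.2 in that with the combination, and the same pair was 41.6 and 34.4 in JVM2 and 95 and 79.5 in MAVER1. In single lines, 25 of the 44 (56.8%) were lower with both drugs than with ibrutinib in all 3 lines, against 24.3% of all genes, and 3 (6.82%) were higher, against 26.1%. The median was -0.17, against 0.05 over all genes. Without JEKO1 or without MAVER1, 0 members were called, and with library totals the split was 4 lower and 3 higher.

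Ibrutinib added to ironomycin, that is both drugs against ironomycin, gave 0 calls by edgeR among the members, against 0% of all genes lower and 0% higher. DESeq2 called 0 too, against 0.783% lower and 0.543% higher of the 12519 genes it kept. At an unadjusted p under 0.05 there was 1 lower, against 4.98% of all genes, and 1 higher, against 5.57%. These were RBBP8 (-0.25 ± 0.11 SE, adjusted p = 0.470) and ATM (0.27 ± 0.12, adjusted p = 0.471). RAD51C came next (-0.22 ± 0.11, adjusted p = 0.488). ATM was higher with both drugs than with ironomycin in each line, with log2 ratios of 0.31, 0.11 and 0.39. CHEK1 was lower in JEKO1 (-0.27) and MAVER1 (-0.39) and at 0.03 in JVM2.

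The departure of both drugs from the sum of the single-drug changes on the log2 scale was called for 0 members by edgeR, against 0% of all genes lower and 0% higher. No member was at an unadjusted p under 0.05 (0 lower, against 0.632% of all genes, and 0 higher, against 1.33%), and DESeq2 called 0, against 0% in each direction. The lowest p-values were for CHEK1 (-0.29 ± 0.16 SE), PALB2 (-0.23 ± 0.13), the bridge between BRCA1 and BRCA2, and FANCI (-0.27 ± 0.16), each with an adjusted p of 0.9999. Of the 44, 39 had a fitted value under 0, against 9018 of all 18674 genes, with a median of -0.11 against 0.009 over all genes. The 20 proliferation genes described below were all under 0 too, with a median of -0.26.

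The change with ironomycin, averaged over the libraries without and with ibrutinib, was tested for a difference between lines with 2 coefficients. Of the 44 members, 2 were called (4.55%), against 9.38% of all genes. BARD1, the partner of BRCA1 in its ligase, had a mean log2 ratio of -0.35 for JEKO1, -0.21 for JVM2 and 0.17 for MAVER1 (range 0.53, adjusted p = 0.0362). Its level was 34.6 TMM CPM in control and 29 with ironomycin in JEKO1, 55.8 and 49.3 in JVM2, and 39.2 and 50.0 in MAVER1. With both drugs MAVER1 was at 41.2, level with its ibrutinib library at 41.2, so the rise there was in the library with ironomycin alone.

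EME1, the partner of the nuclease MUS81, had mean log2 ratios of 0.05 for JEKO1, 0.31 for JVM2 and -0.37 for MAVER1 (range 0.68, adjusted p = 0.0362). In control, ironomycin, ibrutinib and both drugs it was at 28.7, 35.6, 27.0 and 33.7 TMM CPM in JVM2, and at 17.9, 15.9, 19.2 and 12.9 in MAVER1. ATM came next, with 0.35, 0.27 and 0.76 (adjusted p = 0.0607). CLSPN had the widest range, -0.67 in JEKO1, -0.16 in JVM2 and 0.12 in MAVER1, but its adjusted p was 0.104. Both calls were lost without MAVER1, where BARD1 had a range of 0.16 and EME1 of 0.28. BARD1 was also lost without JEKO1 (range 0.38, adjusted p = 0.0746), and EME1 without JVM2 (range 0.42, adjusted p = 0.171).

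The level of these genes also differed between the lines. Over the same 4 treatments, the level differed between lines for 39 of the 44 members (88.6%), against 90% of all genes, and the median range between lines was 0.70 on the log2 scale against 1.32. The 5 not called were RAD51C, FANCB, FANCF, SLX4 and CLSPN. JVM2 had the highest level for 19 members, MAVER1 for 14 and JEKO1 for 11, so no line was highest throughout. The 4 libraries of JEKO1 and those of JVM2 did not overlap for 30 members (68.2%, against 68.5% of all genes). The same held for 26 (59.1%, against 50.9%) between JEKO1 and MAVER1 and for 25 (56.8%, against 62.4%) between JVM2 and MAVER1, so these shares were near those of the whole table.

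RAD54B, a relative of RAD54L, had the widest range, 2.56 on the log2 scale or 5.89-fold. It was at 1.11 to 1.61 TMM CPM in the 4 JEKO1 libraries, 5.71 to 6.21 in JVM2 and 6.02 to 9.19 in MAVER1. JEKO1 stood apart from the other lines, which overlapped. NBN came next, with a range of 1.77, at 27.5 to 33.6 TMM CPM in JEKO1, 86.2 to 114 in JVM2 and 102 to 111 in MAVER1. JEKO1 was again the low line. ATM had a range of 1.71, at 126 to 187 in JEKO1, 64.2 to 83.2 in JVM2 and 33.4 to 67.5 in MAVER1. MAVER1, the line described as ATM-inactivated, was lowest on average and still had 1207 ATM reads in its lowest library, and only with both drugs did it reach the range of JVM2.

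Among the other sensors, MRE11 was lowest in JVM2 (30.6 to 34.2 TMM CPM) and highest in MAVER1 (97.8 to 110), a range of 1.67, whereas NBN of the same complex was lowest in JEKO1. RAD50, the remaining subunit, had a range of 0.30. H2AX was highest in JVM2 (range 1.39), at 238 to 350 TMM CPM against 82.3 to 175 in the other lines. ATR (range 1.38) was lowest in JEKO1, at 29 to 39.9, and highest in JVM2, at 89.0 to 97.0. CHEK2 (range 1.36) was highest in MAVER1, and BRCA2 (range 1.33) in JEKO1, at 90.9 to 109 against 33.2 to 42.5 in the other lines.

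**Figure D4:**
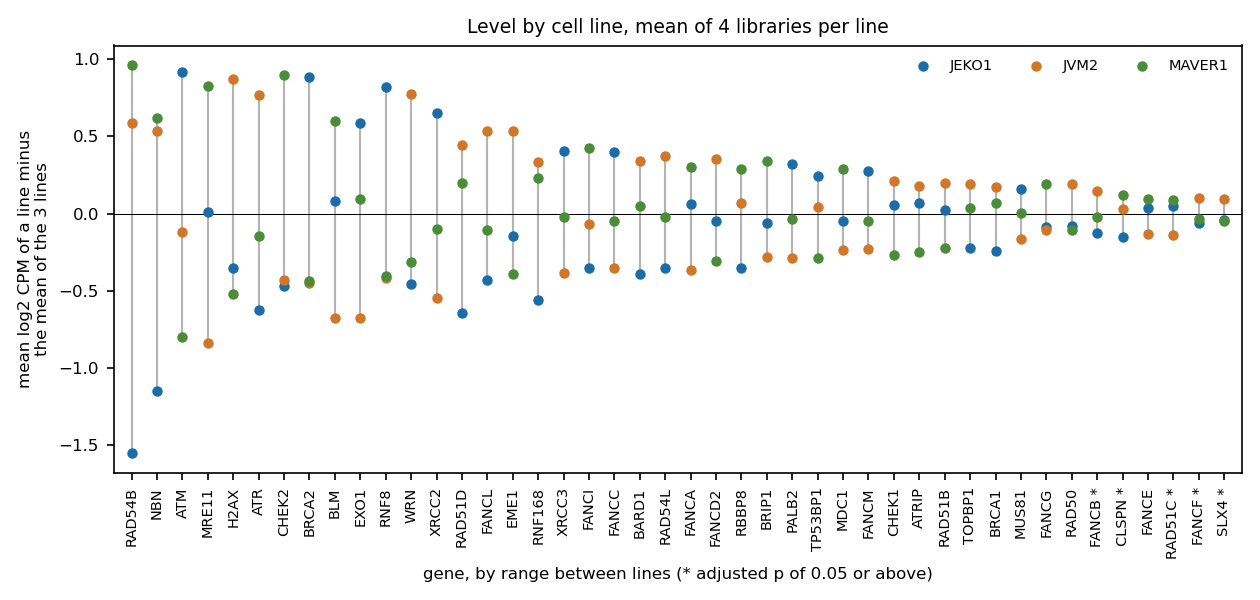
Mean log2 TMM CPM of each line (points, 4 libraries per line) minus the mean of the 3 lines, for the 44 genes ordered by the range between lines (grey bar). RAD54B and NBN are low in JEKO1, ATM is low in MAVER1, and the genes marked with an asterisk did not pass the test.

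Other genes of the same pathways, from a list of 65, gave 15 lower (23.1%, against 14% of all genes) and 4 higher (6.15%, against 14.2%) with both drugs against control, and a median of -0.11, close to the -0.12 of the members. Of those called lower, the lowest were TIPIN (-0.74), of the fork protection complex, CDC25A (-0.51), the phosphatase that CHEK1 restrains, and FAAP24 (-0.51), a DNA-binding partner of FANCM. The 3 subunits of RPA, which coats single-stranded DNA, were lower at -0.46 for RPA2, -0.42 for RPA3 and -0.38 for RPA1. Of the 4 called higher, the highest were the nucleases FAN1 (0.57) and GEN1 (0.46) and the nuclease partner EME2 (0.57). Of 12 end-joining genes tested, 2 were lower (16.7%, near the 14% of all genes), XRCC6 (-0.60) and XRCC5 (-0.51), the subunits of Ku, and 0 were higher, with 0 higher also at an unadjusted p under 0.05.

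Proliferation genes moved further than the 44 members. Of 20, 13 were lower (65%, against 14% of all genes) and 0 higher, with 0 higher at an unadjusted p under 0.05, and the median was -0.52. The lowest were CCNB1 (-1.03), CCNA2 (-0.82) and RRM2 (-0.79), the mitotic and S phase cyclins and a subunit of ribonucleotide reductase. The smallest falls among those called were TOP2A (-0.49), MCM7 (-0.50) and CDC45 (-0.51). In single lines their median was -0.82 for JEKO1, -0.23 for JVM2 and -0.52 for MAVER1, where that of the members was -0.15, -0.02 and -0.07. With ironomycin alone edgeR called 0 of the 20, with 12 lower and 0 higher at an unadjusted p under 0.05 and a median of -0.33. Whether fewer dividing cells had a part in the lower levels of the members was not tested. In bulk RNA fewer cells with a transcript and less transcript per cell cannot be told apart. Of 20 p53 targets, 6 were higher (30%, against 14.2% of all genes) and 0 lower (1 lower at an unadjusted p under 0.05). The 6 were led by TP53INP1 (1.79), SESN2 (1.41) and BBC3 (0.87), and the lowest were CDKN1A (0.63), ZMAT3 (0.66) and TNFRSF10B (0.77). The lines differed: the median of the 20 was -0.10 for JEKO1, 0.39 for JVM2 and 0.19 for MAVER1. In that order, 11, 1 and 7 of the 20 were below control. The ironomycin effect differed between lines for 9 of the 20 (45%, against 9.38% of all genes). The summed B cell markers went from 1809.9 TMM CPM in the control to 1322 with both drugs in JEKO1, from 1521 to 1165 in MAVER1 and from 1313 to 1372 in JVM2, so the sum was lower in JEKO1 and MAVER1 and higher in JVM2. Single markers were split in JVM2, with log2 ratios of 0.37 for MS4A1, 0.13 for PAX5, -0.22 for CD79A and -0.34 for CD79B. CD79A and CD79B were lower in all 3 lines, and edgeR called CD79A (-0.53, adjusted p = 0.0151).

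**Figure D5:**
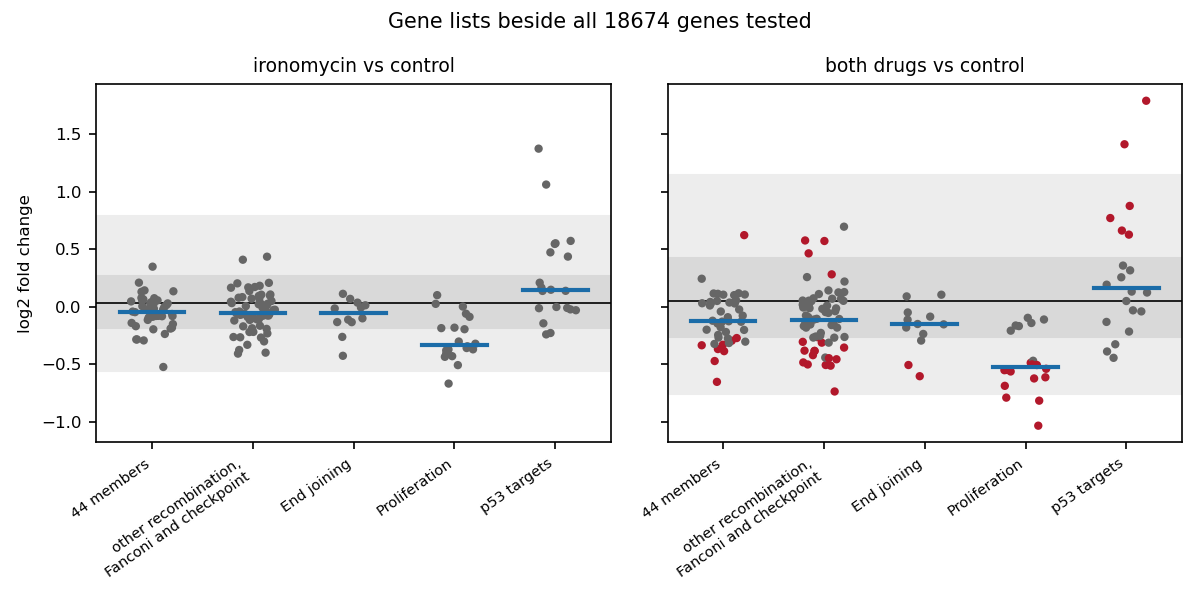
Log2 fold change of each gene (points, red for an adjusted p under 0.05) in 5 lists for ironomycin and for both drugs against control, with the list median (blue bar). The grey bands hold the middle 50% and 90% of all 18674 genes tested and the black line is their median. The members lie around the median of all genes, and the proliferation genes lie lower.

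Reads shared with other genes limit some values. In GENCODE, 30 of the 44 members have exons that overlap another gene, and the strand used in counting is not given in the sources used here. Among others, ATRIP overlaps TREX1, CHEK1 overlaps STT3A and RAD54B, the member with the widest range between lines, overlaps FSBP on the same strand. ATM overlaps NPAT, CHEK2 overlaps HSCB and RAD54L overlaps LRRC41 on the opposite strand. H2AX, EXO1, BARD1 and NBN overlap none. The pseudogene copies of CHEK2 held at most 1 read in a library, that of BRCA1 1 to 8 and that of FANCD2 2 to 18.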

How the data were processed

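Polyadenylated RNA of 12 libraries was sequenced in paired-end mode with a strand-specific kit. The deposited values are raw counts per Ensembl gene, which the authors did not normalize. The submitters' processing notes name STAR, DESeq2 and GRCh37, and the counter, annotation release and strand setting are not given in the sources used here. All 12 columns were used (0 left out). Identifiers were matched to symbols in a table of names (52181 of 63677 matched).

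Genes were tested in R 4.3.3 with the quasi-likelihood F-test of edgeR 4.0.16 after TMM scaling and filterByExpr by treatment (18674 genes). The model had terms for treatment and line, with Benjamini-Hochberg adjustment over all genes tested and a threshold of 0.05. The study's own fit is not given in the sources used here. SE is the size of the log2 fold change divided by the root of F. Single-line ratios used a prior count of 2 and have no test. The line pairs the libraries by design. Deviations from treatment means correlated at 0.926 to 0.976 within a line (18 pairs) and -0.705 to -0.127 between lines (48 pairs). Taking out the mean over the lines pushes the values between lines below 0, so they do not test the pairing. Tests were checked on simulated counts.

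Members, role groups, lists and tests were chosen with earlier results of these data known. Statistics are given for each called member, otherwise for the 3 of lowest p, and of other lists for the 3 lowest and 3 highest called genes. The 3 RPA subunits, BRCA1, BRCA2, CLSPN and others outside that rule were chosen after their values were seen. An item of the marker list is not reported here. Alternatives were RLE factors, library totals, no filter, DESeq2 1.42.0, a log2 fold change of at least 1, only the 2 groups compared, no block, each line left out and, for ratios, a prior count of 0.5. RefSeq windows and GENCODE exons, both on GRCh38, were read in Python 3.11.15 (pandas 2.3.3), and matplotlib 3.10.9 drew the plots.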

Additional observations from a re-analysis of the deposited data

Results flagged for a closer look

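The change with ironomycin differed between lines for BARD1 (range 0.53 on the log2 scale, adjusted p = 0.0362) and for EME1 (range 0.68, adjusted p = 0.0362) by the test of the difference itself in edgeR. BARD1 was lower with ironomycin in JEKO1 and JVM2 and higher in MAVER1, and EME1 was higher in JVM2 and lower in MAVER1, with 1 library per line and treatment behind each value. Over the alternatives the adjusted p ran from 0.0124 to 0.612 for BARD1 and from 0.0156 to 0.4 for EME1. The share of members called, 4.55%, was below that of all genes tested, 9.38%, and the doses differed between lines.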

How the results depend on the processing

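Against 9 members for both drugs against control, 13 were called by DESeq2, 6 without the filter on low counts, 5 with library totals, 0 without the replicate block (the paired term for the line), 0 with only the 2 groups compared, 0 at a log2 fold change of at least 1, and 0 to 12 when each line was left out in turn. Against 9 for both drugs against ibrutinib, 16 were called by DESeq2, 0 without the block, 1 with only the 2 groups, 0 at a log2 fold change of at least 1, and 0 to 13 when a line was left out. Against 0 for ironomycin, 1 was called with library totals, 1 without the filter on low counts, 6 by DESeq2, and 0 to 1 when a line was left out. For the ironomycin effect by line, 1 was called with library totals, 4 by DESeq2, and 0 to 2 when a line was left out, against 2. The median of the members with both drugs moved from -0.12 to -0.00365 with library totals, and ran from -0.18 to -0.0520 when a line was left out. The median with ironomycin, -0.05, was 0.02 with library totals. Of 467 repeats for single called members, 331 kept the direction and the call, 136 kept the direction and lost the call, and 0 turned. These totals include the calls of level by line, each kept in 4 to 7 of 7 repeats. For these calls and for the ironomycin effect by line, the value is a range between lines. A range is never below 0 and could not turn, so only the repeats of the drug comparisons bear on direction. The drug calls were less stable. Leaving out the fold minimum, each call of both drugs against control was kept in 3 to 5 of 9 repeats. Each call of both drugs against ibrutinib was kept in 2 to 6 of 9. Taking out a line leaves 2 lines per treatment, and a fit of 2 groups has 2 residual degrees of freedom; the cause of the other losses was not tested. A prior count of 0.5 moved no single-line ratio of a member by more than 0.0150. Counting error is largest for RAD54B, with 47 to 341 reads.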
